A study of Homo sapiens with 6 samples.

Results

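SOX2, its overlapping long non-coding RNA SOX2-OT and 6 further genes of neural stem and glial cells were examined in MDA-MB-231 cells, a triple-negative line from human breast cancer, made resistant to paclitaxel (PTX). The 8 genes, of 61015 annotated genes on file, were SOX2, SOX2-OT, NES, FABP7, GPM6B, SOX8, SOX10 and POU3F2. They were listed by name, and for each the counts of its annotated transcripts were summed. The 8 genes were chosen by their levels and by the difference between BCSC and non-BCSC in these same libraries, so that difference is given for the 8 genes as a description, without a test. PTX-resistant cells, whose resistance both groups share, had been sorted by flow cytometry on aldehyde dehydrogenase (ALDH) activity into 3 BCSC libraries (breast cancer stem cells, ALDH+) and 3 non-BCSC libraries (ALDH-), and total RNA was sequenced for lncRNAs. The ALDH gate and the resistance of both groups come from the study's text, and the group from each library's title. Of the titles, only those of BCSC name PTX resistance and the line. The cell type field read the same in all 6 libraries. Nothing in the labels ties a library to a separate culture or sort, so the spread between libraries may be technical, and p-values measure only that spread.

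SOX2 is a high-mobility-group transcription factor that maintains pluripotent and neural stem cells, often on DNA sites shared with POU factors such as POU3F2. SOX2-OT is a lncRNA gene on the same strand whose introns contain SOX2, and which is spliced from many alternative starts. NES (nestin), FABP7 (brain lipid-binding protein) and GPM6B (a proteolipid of the neural plasma membrane) are classic products of neural stem cells and radial glia, while SOX8 and SOX10 are the glial and neural crest SOX factors.

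Promoters are shown first for the 4 genes on which the values below turn most, with the letters of the searched motifs in capitals. They are RefSeq sequences of GRCh38.p14, from 250 bases before to 50 bases after an annotated transcript start, and all 4 lie on the plus strand. The windows were chr3:181610084-181610383 for SOX2-OT at the most upstream start of the site that held most of its counts, chr3:181711675-181711974 for SOX2, chr6:98834324-98834623 for POU3F2 and chr6:122779466-122779765 for FABP7.
SOX2-OT: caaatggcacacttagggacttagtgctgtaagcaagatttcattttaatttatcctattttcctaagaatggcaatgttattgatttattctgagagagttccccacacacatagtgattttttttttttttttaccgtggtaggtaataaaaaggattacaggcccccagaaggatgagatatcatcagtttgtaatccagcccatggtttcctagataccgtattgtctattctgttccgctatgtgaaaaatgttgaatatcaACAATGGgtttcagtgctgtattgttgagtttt
SOX2: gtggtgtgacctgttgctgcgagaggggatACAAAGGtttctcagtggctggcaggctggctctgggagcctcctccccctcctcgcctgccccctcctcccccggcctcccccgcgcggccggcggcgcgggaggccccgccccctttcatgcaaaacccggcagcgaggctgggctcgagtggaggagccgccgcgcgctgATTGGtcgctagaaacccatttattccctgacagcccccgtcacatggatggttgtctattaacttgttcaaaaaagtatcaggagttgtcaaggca
POU3F2: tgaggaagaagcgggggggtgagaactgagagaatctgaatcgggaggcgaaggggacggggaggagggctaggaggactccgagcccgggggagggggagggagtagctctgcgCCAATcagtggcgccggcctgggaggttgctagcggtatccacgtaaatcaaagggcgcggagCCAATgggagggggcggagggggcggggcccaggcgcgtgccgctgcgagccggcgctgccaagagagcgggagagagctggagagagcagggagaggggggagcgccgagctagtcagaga
FABP7: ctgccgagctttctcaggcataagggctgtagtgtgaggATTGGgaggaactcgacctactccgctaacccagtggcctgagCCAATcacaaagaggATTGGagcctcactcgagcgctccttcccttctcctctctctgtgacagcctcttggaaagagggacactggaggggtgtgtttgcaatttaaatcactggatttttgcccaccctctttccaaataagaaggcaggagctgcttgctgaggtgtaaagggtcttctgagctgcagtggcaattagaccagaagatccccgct

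Motifs were searched as exact letters on both strands. The SOX-type motif ACAATGG, found in 3.16% of 35116 RefSeq promoters of this length, was present once in the SOX2-OT window, 17 bases after the start. The other SOX-type motif, ACAAAGG, found in 5.33% of promoters, was present once in the SOX2 window. CCAAT, found in 34.6% of promoters, matched 3 times in FABP7, 2 times in POU3F2 and 1 time in SOX2, some matches reading ATTGG on the opposite strand. The octamer ATGCAAAT (1.77% of promoters) had no match in any of the 9 windows that RefSeq held for the 8 genes. These matches describe the letters only, and SOX8 and SOX10 had no entry.

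Total counts ran from 9898588 to 21215352 per library, and every BCSC library was deeper than every non-BCSC library. Levels are in CPM, that is, counts scaled to a common library total after TMM (trimmed mean of M values) scaling, as mean ± SD with n = 3 per group. Across genes, 20442 passed edgeR's filter on low counts, with a biological coefficient of variation of 0.453. A gene was called at a Benjamini-Hochberg (BH) adjusted p under 0.05 in edgeR's quasi-likelihood test and a log2 fold change, BCSC over non-BCSC, beyond 1 in either direction. By that rule 8.85% of genes were called higher and 11.3% lower in BCSC. The median log2 fold change was -0.05 over all genes tested and 0.22 over those averaging 50 counts or more, to which the 6 well-counted genes below belong; that second median was 0.13 with RLE size factors. The 407 olfactory receptor genes, which gave a measure of counts at unused genes, held 0.0517 to 0.192 CPM per kb of transcript in BCSC and 0.682 to 1.46 in non-BCSC, so that this level was higher in every non-BCSC library.

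The line label was compared with its markers. VIM, the mesenchymal intermediate filament, was at 3418 ± 412 CPM in BCSC and 2793 ± 506 in non-BCSC. The mesenchymal and basal markers CD44, CAV1, EGFR, AXL and MSN were also abundant. KRT18, a simple epithelial keratin that MDA-MB-231 is known to express, was at only 1.85 ± 0.802 and 11.0 ± 1.28 CPM. The other simple epithelial keratins, looked up after KRT18 had been seen, were low as well, with KRT8 at 6.59 ± 1.82 and 58.6 ± 10.01 CPM and KRT19 at 0 counts in 5 of 6 libraries, against 3422 and 2684 CPM for GAPDH. These low keratins go against the line label, and the neural and glial genes described below, several of them abundant in the same libraries, are not genes the line is known for. The identity of the libraries was not tested. Reads of KRT18 and KRT8 may be split with pseudogenes. The 67 KRT18 pseudogenes held 117 to 279 counts per library and the 51 KRT8 pseudogenes 100 to 249. KRT8 itself ranged over 80 to 172 among BCSC libraries and over 508 to 833 among non-BCSC libraries. The handling of shared reads is not known here, so whether such splitting lowered either keratin was not tested. Of the 7 markers that should be present, all were tested, CAV1 (570 ± 15.2 and 231 ± 21.4 CPM) being called higher (log2 fold change 1.30 with SE 0.10, edgeR adjusted p = 8.65e-05) and KRT18 lower in BCSC (-2.56, SE 0.47, edgeR adjusted p = 0.00489). Of the 8 that should be absent, 5 were tested, and the progesterone receptor PGR was called lower in BCSC at 0.753 ± 0.563 against 13.9 ± 6.06 CPM (-4.19, SE 0.64, edgeR adjusted p = 0.00218). Among these 8, ERBB2 was at 64.7 ± 8.71 and 78.3 ± 11.5 CPM, and EPCAM, KRT5 and KRT14 averaged under 2 CPM in both groups. GATA3, like ERBB2 uncalled, was the only tested one of the 8 with a log2 fold change above 0 (0.57). All 8 summed to 81.3 to 93.5 CPM in BCSC and 103 to 144 in non-BCSC. The libraries are named here by their titles.

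Of the 8 genes, 6 passed the filter on low counts, and SOX8 and SOX10 did not. Of the 6, 4 (SOX2, SOX2-OT, NES and FABP7) had all 3 BCSC libraries below all 3 non-BCSC libraries, and GPM6B and POU3F2 overlapped. For SOX2-OT this held only with its outermost start site, described below, counted in. Over all genes tested, 52.1% did not overlap between the groups and 27.9% had all BCSC libraries lower. Only FABP7 lay beyond a log2 fold change of 1. Of all genes, 20.1% were called in either direction, which required an adjusted p under 0.05 as well as that fold. The median of the 6 log2 fold changes was -0.34, and the list was chosen with this contrast known, so nothing is read from these shares.

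**Figure D1:**
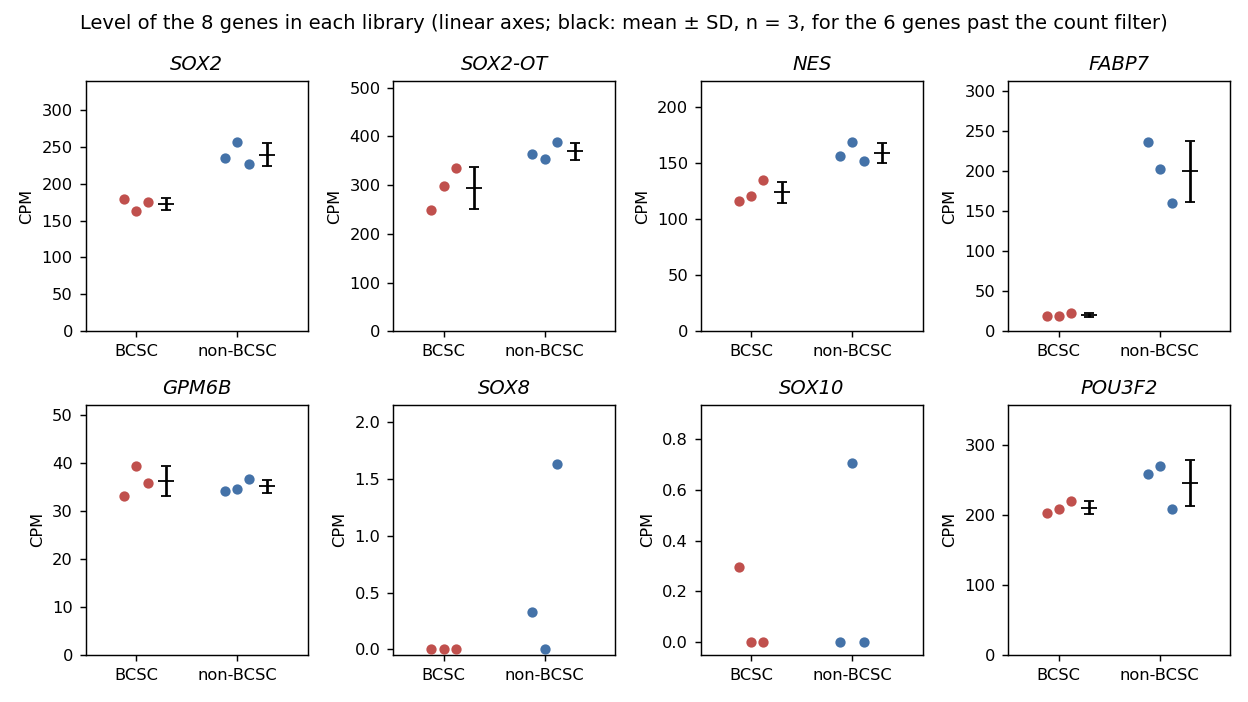
Level of each gene in CPM (vertical, linear, each panel with its own scale) in the 3 BCSC and 3 non-BCSC libraries; points are libraries and black bars the mean ± SD of the 6 genes that passed the count filter. FABP7 was at 18.9 to 22.6 CPM in BCSC and 160 to 236 in non-BCSC, while the other well-counted genes differed by less than 1.4-fold between group means.

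SOX2 (ENSG00000181449.4, a single-exon gene at chr3:181429713-181432224, plus strand, GRCh37) was abundant in all 6 libraries. It held 179, 163 and 175 CPM in BCSC 1 to 3 and 234, 256 and 227 CPM in non-BCSC 1 to 3, from 2362 to 3633 counts per library. The groups did not overlap, the lowest non-BCSC library lying above the highest BCSC library. The mean level was 172 ± 8.55 CPM in BCSC and 239 ± 15.5 in non-BCSC, a log2 fold change of -0.47 (SE 0.10), or 1.39-fold lower. It ranged from -0.77 with GC content and transcript length corrected to -0.37 without non-BCSC 2, and was below 0 in all 14 alternatives. In level per kb SOX2 took rank 776 of the 20442 genes.

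POU3F2 (ENSG00000184486.10, chr6:99282450-99287334, plus strand, GRCh37), the POU factor BRN2 that partners SOX2 in neural progenitors, is also a single-exon gene. Its level was 203, 208 and 220 CPM in BCSC and 258, 270 and 209 CPM in non-BCSC. Non-BCSC 3 lay within the BCSC range and the others above it. The log2 fold change was -0.22 (SE 0.12), with means of 211 ± 8.76 and 246 ± 32.3 CPM.

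NES (ENSG00000132688.11, chr1:156638555-156647199, minus strand, GRCh37) encodes nestin, the intermediate filament of neural stem cells. It was at 116, 121 and 135 CPM in BCSC and at 156, 169 and 152 CPM in non-BCSC, with no overlap. Means were 124 ± 9.49 and 159 ± 8.92 CPM, and the log2 fold change was -0.36 (SE 0.11). Its transcript is GC-rich (59.3%), and with GC content and length corrected the value was -1.40.

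FABP7 (ENSG00000164434.12, chr6:123100861-123105219, plus strand, GRCh37), a fatty acid-binding protein of radial glia, had by far the widest gap of the 8 genes. Counts were 396, 290 and 374 in the BCSC libraries and 2861, 2291 and 1673 in the non-BCSC libraries, although the latter were shallower. These were 19.5, 18.9 and 22.6 CPM against 236, 202 and 160 CPM. The group means were 20.3 ± 1.99 and 200 ± 37.9 CPM, a log2 fold change of -3.29 (SE 0.17), or 9.81-fold lower in BCSC. The value lay between -3.53 and -2.82 in every alternative run, the largest gap after removal of the olfactory background and the smallest after correction for GC content and length. Of its counts, 96.5% were on the 4-exon transcript FABP7-202, and the rest on FABP7-201. Its level per kb was 142 to 472 times that of the olfactory receptor genes in BCSC and 136 to 434 times in non-BCSC. In bulk libraries, a smaller share of cells with a transcript and less of it per cell cannot be told apart.

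GPM6B (ENSG00000046653.15, chrX:13789058-13956757, minus strand, GRCh37) was the lowest of the 6 well-counted genes per kb. It was at 33.2, 39.4 and 35.9 CPM in BCSC and 34.2, 34.5 and 36.7 CPM in non-BCSC. The ranges overlapped, with a log2 fold change of 0.04 (SE 0.17) whose sign turned in 5 alternatives, to -0.05 with RLE size factors and to -0.15 after removal of the olfactory background, for example. Of its 11 annotated transcripts, GPM6B-205 alone held 99.0% of the counts.

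SOX8 (ENSG00000005513.10, chr16:1031770-1036979, plus strand, GRCh37) had 0 counts in all 3 BCSC libraries and 4, 0 and 17 counts in non-BCSC. For such a library 3 counts remain possible by counting error alone, or at most 0.196 CPM. SOX10 (ENSG00000100146.20, chr22:38366693-38383429, minus strand, GRCh37) had 6, 0 and 0 counts in BCSC against 0, 8 and 0 in non-BCSC. In the non-BCSC libraries both stood at no more than 0.269 times the level per kb of the olfactory receptor genes, and SOX10 in BCSC 1 at 1.65 times it, so expression of either could not be told from this background.

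Ordered by level per kb of transcript, SOX2-OT came first in BCSC at 179 ± 49.0 CPM per kb, followed by SOX2 at 68.6 ± 3.41, POU3F2 at 43.1 ± 1.79, FABP7 at 24.9 ± 2.29, NES at 22.3 ± 1.71 and GPM6B at 8.58 ± 0.422. Of these neighbours, the libraries of FABP7 and NES overlapped. In non-BCSC, FABP7 came first at 249 ± 49.0 CPM per kb and its libraries overlapped those of SOX2-OT at 191 ± 24.3. SOX2 followed at 95.1 ± 6.18, POU3F2 at 50.3 ± 6.62, NES at 28.5 ± 1.60 and GPM6B at 7.90 ± 0.273, with no overlap between the remaining neighbours.

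**Figure D2:**
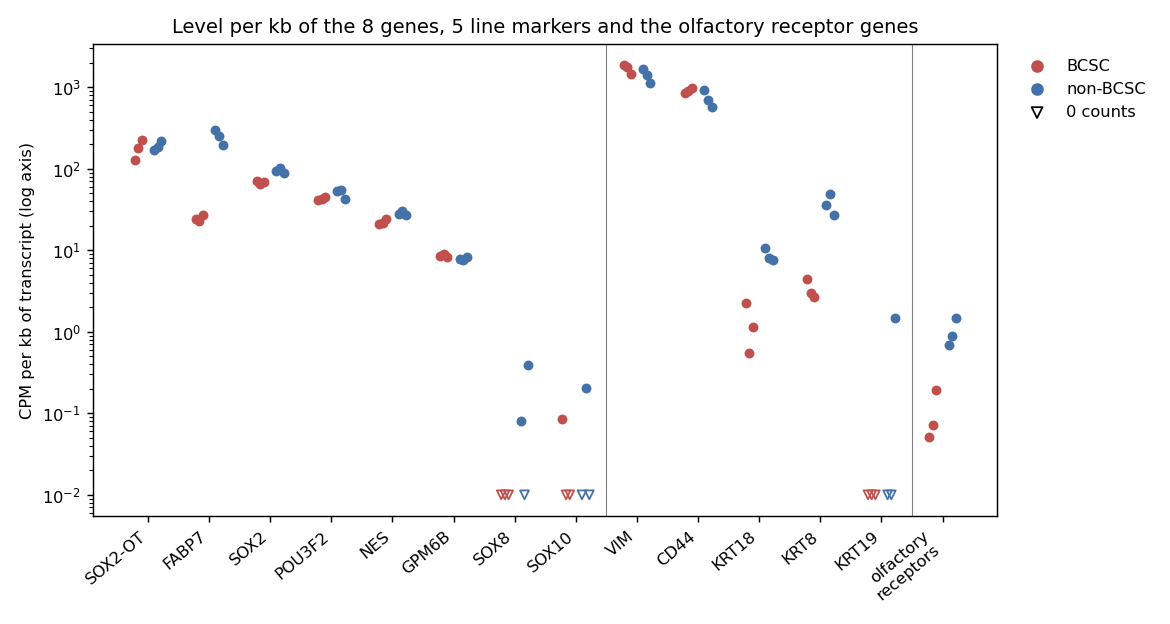
Level in CPM per kb of transcript (vertical, log axis) in each library for the 8 genes (left), 5 line markers (middle) and the olfactory receptor genes together (right); open triangles mark libraries with 0 counts. SOX8 and SOX10 sat below the olfactory level in non-BCSC, and KRT18, KRT8 and KRT19 sat far below VIM and CD44.

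SOX2-OT (ENSG00000242808.12, chr3:180707550-181554668, plus strand, GRCh37) is the lncRNA gene in whose introns SOX2 lies. Its isoforms summed to 5056, 4568 and 5535 counts in BCSC 1 to 3 and to 4417, 4014 and 4051 in non-BCSC 1 to 3. These were 249, 298 and 335 CPM against 365, 355 and 388 CPM, and the groups did not overlap. This sum includes the outermost start site described below, which lay close to the olfactory background. That site held 2.35 ± 0.715 CPM in BCSC and 32.9 ± 5.77 in non-BCSC. Without it, BCSC 3 would lie above non-BCSC 2 and the groups would overlap. Mean levels of the whole sum were 294 ± 43.0 CPM (BCSC) and 369 ± 17.4 CPM (non-BCSC), and the log2 fold change was -0.33 (SE 0.12). Correction for GC content and length turned it to 0.13, so its direction depended on that step. The GC content of SOX2-OT transcripts was 40.9%, against 50.7% for SOX2.

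For each SOX2 count there were 1.39, 1.83 and 1.91 SOX2-OT counts in BCSC against 1.56, 1.38 and 1.72 in non-BCSC. On average this was 1.71 ± 0.280 and 1.55 ± 0.166 SOX2-OT counts, and the groups overlapped. No annotated SOX2-OT exon shared a base with SOX2. Both genes lie on the plus strand, so strand does not separate unspliced SOX2-OT RNA from SOX2 mRNA within the SOX2 exon.

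Of 119 annotated SOX2-OT isoforms, 65 had counts and 54 had 0 in all 6 libraries. Grouping isoforms whose starts lie within 1000 bases gave 15 start sites, 13 of them with counts. The site 102 kb upstream of SOX2 (first start at position 181328122 of chr3, GRCh37), led in every library. Its isoforms do not all share a start, and the 2 that start within the RefSeq window shown above, SOX2-OT-207 and SOX2-OT-293, held 15.1% of SOX2-OT counts in BCSC and 20.4% in non-BCSC. It held 60.3%, 56.8% and 65.4% of SOX2-OT counts in BCSC against 71.1%, 59.4% and 48.0% in non-BCSC, or 60.8% ± 4.34 and 59.5% ± 11.6. These ranges overlapped, and non-BCSC libraries differed more among themselves than the group means did. A site 13 kb upstream came next by mean share, with 18.7% ± 0.946 and 17.4% ± 10.2, and a site 537 kb upstream held 10.2% ± 7.17 and 8.54% ± 6.23.

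The outermost site, 722 kb upstream of SOX2 and back to back with the mitochondrial import gene DNAJC19 on the minus strand, was the exception. Its counts were 31, 43 and 45 in the BCSC libraries and 359, 333 and 412 in the non-BCSC libraries, spread over 17 of its 36 isoforms. This was 0.613%, 0.941% and 0.813% of SOX2-OT counts against 8.13%, 8.30% and 10.2%. The mean level was 2.35 ± 0.715 CPM in BCSC and 32.9 ± 5.77 in non-BCSC. Per kb of exon these counts were 0.766 to 2.11 times the level of the olfactory receptor genes in BCSC and 1.46 to 2.35 times in non-BCSC, so the site lay close to that background in both groups. DNAJC19 itself had 956, 769 and 761 counts in BCSC against 597, 702 and 476 in non-BCSC.

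**Figure D3:**
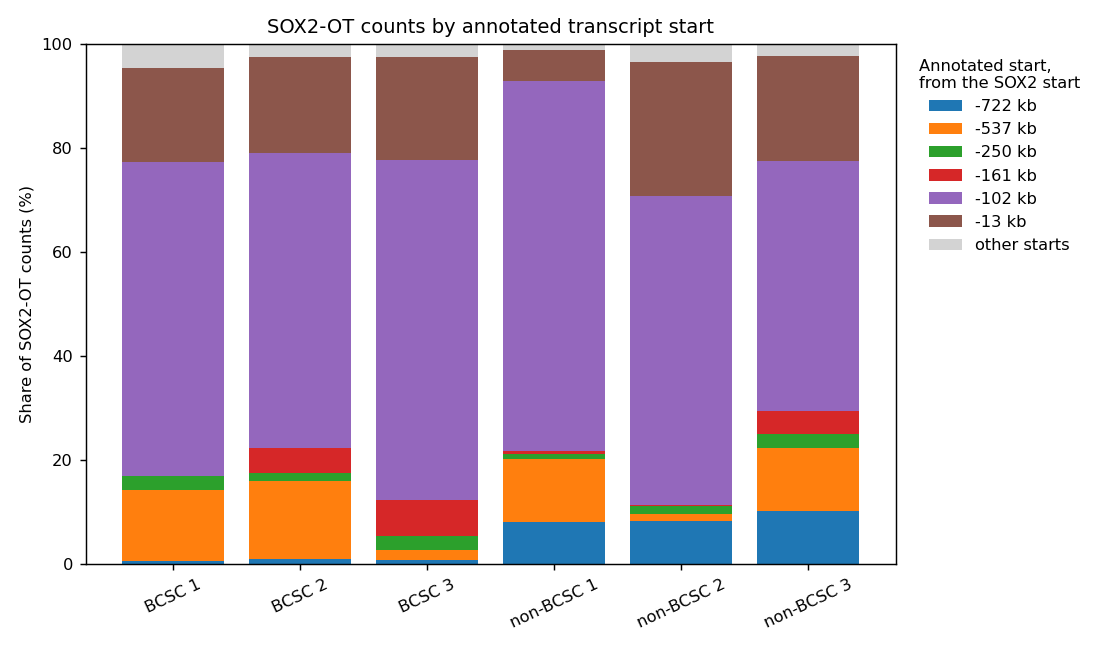
Share of SOX2-OT counts (vertical, percent) in each library by annotated start site, labelled with its distance in kb from the SOX2 start (minus: upstream). The site 102 kb upstream held 48.0% to 71.1% of the counts, and the site 722 kb upstream held under 1% in each BCSC library and 8.13% to 10.2% in non-BCSC.

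At the level of single isoforms, 10 held at least 5% of the SOX2-OT counts of either group, and together 73.1% in BCSC and 66.1% in non-BCSC. They varied far more between libraries of a group than the gene did. Their median coefficient of variation was 0.379 in BCSC and 0.866 in non-BCSC, against 0.146 and 0.0472 for the SOX2-OT sum. SOX2-OT-272, for example, had 587, 599 and 0 counts in BCSC against 473, 0 and 399 in non-BCSC. Of all SOX2-OT isoforms, 8 had 0 counts in one library beside at least 100 in another of the same group. Whether such gaps arose in the cells or when reads shared by isoforms were assigned was not tested. In 2 of the 10 isoforms, SOX2-OT-295 and SOX2-OT-258, the BCSC libraries all lay above the non-BCSC libraries, where 28% of transcripts averaging 10 counts or more did not overlap in either direction.

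Of the 65 counted isoforms, 9 had counts in BCSC alone and 13 in non-BCSC alone. No share over all transcripts stands beside these numbers or beside the stricter one below, so nothing is read from them. SOX2-OT-313, for example, had 0 counts in each BCSC library and 23, 22 and 15 in the non-BCSC libraries. It is 1327 bases long, and the olfactory receptor genes held 8.27, 9.94 and 15.2 counts per kb in non-BCSC 1 to 3. In BCSC 1 to 3 they held 1.05, 1.11 and 3.18, so few counts in non-BCSC alone may be background. With at least 20 counts required in every library of the group that had them, 1 isoform remained. This was SOX2-OT-258 (ENST00000631025.2), whose counts were 382, 311 and 466 in BCSC 1 to 3 and 0 in each non-BCSC library. Its mean in BCSC was 22.4 CPM, at least 84.1-fold higher than the floor of 3 counts per library in non-BCSC. The isoform was picked by these same counts, so the fold only describes them. The isoform starts 12.3 kb upstream of SOX2 and has 2 exons of 265 and 689 bases, at chr3:181417407-181417671 and chr3:181426702-181427390. All 689 bases of exon 2, and the splice junction, occur in no other annotated SOX2-OT isoform. The junction is shown because it sets this isoform apart from the other 118, with 60 bases of exon 1 in lower case and 60 bases of exon 2 in capitals (GRCh37, plus strand).
SOX2-OT-258: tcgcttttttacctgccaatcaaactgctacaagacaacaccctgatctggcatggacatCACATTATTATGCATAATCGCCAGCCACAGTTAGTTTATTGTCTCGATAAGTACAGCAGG

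The antisense gene ENSG00000289435 extends across exon 2 of SOX2-OT-258 on the minus strand. It had 8, 8 and 3 counts in BCSC against 2, 0 and 2 in non-BCSC. The antisense gene ENSG00000239381 extends across exon 1, with 7, 5 and 16 counts against 24, 27 and 23. Whether exons of either gene overlap those of SOX2-OT-258 was not examined. Whether the counting used strand is not given in the sources used here. Without strand, reads from overlapping exons could not be told apart. From the same start site, 15 other counted isoforms contain all bases of exon 1 of SOX2-OT-258, of which 10 had counts in both groups, 2 in BCSC alone and 3 in non-BCSC alone. SOX2-OT-250, with the same first base, had 89, 41 and 83 counts in BCSC against 19, 23 and 2 in non-BCSC, while SOX2-OT-225 had 209, 181 and 79 against 13, 331 and 466.

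**Figure D4:**
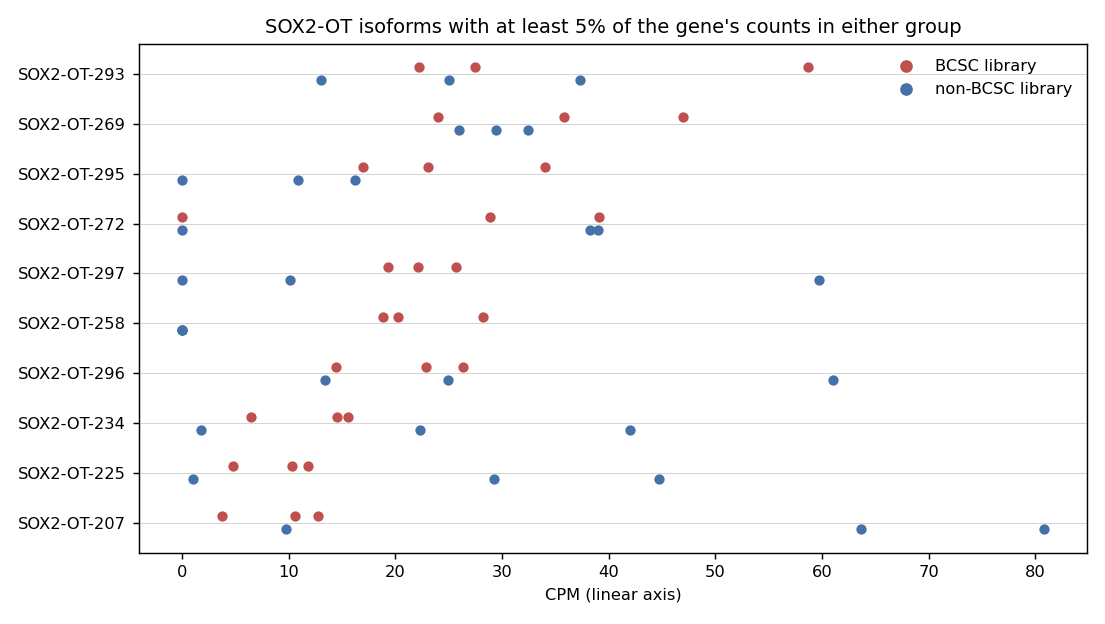
Level in CPM (horizontal, linear) of the 10 SOX2-OT isoforms that held at least 5% of the counts of the gene in either group; each point is a library. Most isoforms spread widely within a group and overlap between groups, and SOX2-OT-258 has all 3 non-BCSC libraries at 0.

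Likeness to SOX2 was measured as the root mean square difference of mean-centred log2 CPM over the 6 libraries, among the 12575 genes averaging 50 counts or more. The closest were YWHAG at 0.0497, TRPS1 at 0.0568 and SCD5 at 0.0569, with a median of 0.506 over all those genes. YWHAG, for comparison, was at 370 ± 14.0 CPM in BCSC and 496 ± 40.5 in non-BCSC. NES followed at rank 65 (0.0935), POU3F2 at rank 563 (0.159), SOX2-OT at rank 871 (0.182) and GPM6B at rank 2602 (0.290), while FABP7 was at rank 11842 (1.41). All points share the same libraries and scaling. SOX2, NES, POU3F2, SOX2-OT, GPM6B and FABP7 were chosen by their levels and group difference in these same libraries. The measure includes that difference, so the ranks of these genes largely restate it and are given as a description. Whether they vary with SOX2 apart from the group difference was not tested.

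Related genes that are not among the 8 were tested in 8 lists, written with earlier results of these data known. Of 110 genes, 69 passed the filter and 17 (24.6%) were called, 6 higher and 11 lower in BCSC, beside 20.1% of all genes. The median log2 fold change of the 69 was -0.06, and -0.05 over all genes. Correction for GC content and transcript length removed all 6 higher calls and is given beside each of those named, although 8 listed genes were still higher at an adjusted p under 0.05 in edgeR without the minimum fold.

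Of 16 other SOX genes, 10 were tested, with a median log2 fold change of -0.47. SOX13, a SoxD factor, rose from 14.98 ± 4.60 CPM in non-BCSC to 45.3 ± 9.29 in BCSC (log2 fold change 1.60 with SE 0.26, edgeR adjusted p = 0.00316), and was not called with GC content and length corrected (0.27). SOX12, a SoxC factor, rose by 1.24 on the log2 scale (SE 0.32, edgeR adjusted p = 0.0174), but the value turned to -0.10 under that correction and the call was lost without BCSC 1 (0.91), non-BCSC 2 (1.27) or non-BCSC 3 (1.17). SOX6, also a SoxD factor, was lower in BCSC at 9.57 ± 2.56 against 27.3 ± 4.58 CPM (-1.51, SE 0.28, edgeR adjusted p = 0.00486). The most abundant of the list were SOX9, a factor of neural crest, glia and mammary stem cells, at 197 ± 6.15 and 277 ± 39.9 CPM (-0.49), and SOX4 at 56.4 ± 4.86 and 76.6 ± 4.73 CPM (-0.44), neither of which was called. SOX1 and SOX3, the closest relatives of SOX2, averaged under 1 CPM in both groups.

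Of 14 other POU genes, 8 were tested and 3 were called lower, each from few counts. POU1F1, the pituitary factor PIT1, had 0 counts in each BCSC library and 12, 10 and 17 in non-BCSC, at least 6.68-fold lower against the floor of 3 counts per library (edgeR adjusted p = 0.0166), with its call lost in 4 alternatives, 3 of which left out BCSC 1, BCSC 2 or non-BCSC 3. POU4F1 had 0, 2 and 12 counts against 34, 34 and 60 (-3.73, SE 1.24, edgeR adjusted p = 0.0466), and its call was lost on leaving out any library but BCSC 3. POU1F1 and POU4F1 stood below the olfactory level per kb in all non-BCSC libraries. POU2F1 (OCT1), the ubiquitous octamer factor, was at 161 ± 12.6 and 104 ± 9.07 CPM (0.62) and POU5F2 at 17.6 ± 7.08 and 15.5 ± 2.11 CPM (0.18), both uncalled. POU5F1 (OCT4), the pluripotency partner of SOX2, averaged 0.26 and 1.05 CPM.

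Of 20 neural stem and radial glia genes, 16 were tested and 2 were called, both higher in BCSC, with a list median of 0.30. ID1, an inhibitor of differentiation factors, rose from 8.71 ± 2.18 to 19.0 ± 3.68 CPM (1.12, SE 0.30, edgeR adjusted p = 0.021), and lost its call with GC content and length corrected (0.17), with 10 counts or more required in every library (0.97) and without BCSC 1, BCSC 2, non-BCSC 2 or non-BCSC 3. VIM, and the glutamate transporter SLC1A3 at 297 ± 2.78 and 352 ± 28.8 CPM (-0.24), were the most abundant and were not called.

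Of 20 genes of neural crest and glia, some of them targets of SOX10, 15 were tested and 3 were called lower. EDNRB, the endothelin receptor of neural crest cells, was at 7.42 ± 1.40 and 20.5 ± 4.58 CPM (-1.46, SE 0.29, edgeR adjusted p = 0.00713). CDH19, a cadherin of Schwann cell precursors, was at 1.13 ± 0.382 and 8.32 ± 3.89 CPM (-2.88, SE 0.58, edgeR adjusted p = 0.00733). DCT, a melanin synthesis enzyme, had 8, 8 and 34 counts against 58, 38 and 127 (-2.77, SE 0.83, edgeR adjusted p = 0.0323), and its call was lost without BCSC 1, BCSC 2, non-BCSC 1 or non-BCSC 3 and after removal of the olfactory background. In non-BCSC, CDH19 and DCT stood at only 0.87 to 2.03 times the olfactory level per kb. The myelin gene PMP22 (164 ± 2.18 and 117 ± 10.7 CPM, 0.49) and the neural crest factor TFAP2A (62.7 ± 6.28 and 74.2 ± 12.1 CPM, -0.24) were the most abundant and uncalled, TFAP2A being called lower only with GC content and length corrected (-1.04).

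Of 10 SOX2 partners and reprogramming factors, 5 were tested. KLF4, one of the reprogramming factors, rose from 4.34 ± 1.11 CPM in non-BCSC to 15.5 ± 4.59 in BCSC (1.84, SE 0.37, edgeR adjusted p = 0.00705), and lost its call without BCSC 2 (1.60) and with GC content and length corrected (0.91). LIN28B, which blocks maturation of let-7, was lower in BCSC with 14, 0 and 24 counts against 64, 48 and 121 (-3.28, SE 1.05, edgeR adjusted p = 0.0409). Its call was lost on leaving out any library but BCSC 3 and after removal of the olfactory background. KLF5 (79.0 ± 8.19 and 52.5 ± 13.4 CPM, 0.59) and TFAP2C (61.8 ± 4.65 and 57.1 ± 9.96 CPM, 0.11) were uncalled, and the value of TFAP2C turned below 0 in some alternatives. NANOG averaged 0.48 and 1.74 CPM.

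Of 8 relatives of the genes described, 4 were tested and edgeR called 0, with 1 at an unadjusted p under 0.05, while DESeq2 called 1 with or without the filter on low counts. GPM6A, the paralogue of GPM6B, was at 437 ± 71.6 and 368 ± 12.7 CPM (0.25), more abundant than GPM6B in both groups. The intermediate filament SYNM was at 135 ± 29.7 and 115 ± 11.7 CPM (0.24). FABP3 and FABP5, relatives of FABP7, averaged under 1 CPM in both groups. FABP5 has pseudogenes, 15 of which held 8 to 80 counts per library.

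Around SOX2 on 3q26.33, 8 of 9 genes were tested and 2 were called lower. CCDC39, a gene of motile cilia, had 41, 10 and 44 counts in BCSC against 156, 188 and 258 in non-BCSC (-3.33, SE 0.52, edgeR adjusted p = 0.00252). The lncRNA LINC01206 had 21, 54 and 86 counts against 196, 264 and 298 (-2.81, SE 0.53, edgeR adjusted p = 0.00534). FXR1, an RNA-binding protein gene, was at 461 ± 43.7 and 683 ± 46.2 CPM (-0.57), and ATP11B, a phospholipid flippase gene, at 399 ± 50.9 and 343 ± 17.6 CPM (0.22). Neither FXR1 nor ATP11B was called.

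Of 14 markers of neurons, astrocytes and melanocytes, 4 were tested. MAP2, a dendritic microtubule protein, was lower in BCSC at 7.00 ± 1.83 against 40.3 ± 8.12 CPM (-2.53, SE 0.28, edgeR adjusted p = 0.000586). TUBB3, neuronal beta-tubulin, was higher at 39.6 ± 17.4 against 17.2 ± 6.43 CPM (1.20, SE 0.35, edgeR adjusted p = 0.0292), but turned to -0.03 with GC content and length corrected and lost its call without BCSC 1, non-BCSC 2 or non-BCSC 3 and after background removal. SYT1 (16.4 ± 2.70 and 13.1 ± 2.95 CPM, 0.32) was uncalled, as was SNAP25 (9.09 ± 2.18 and 18.7 ± 7.71 CPM, -1.04), which was called in 5 alternatives, among them without non-BCSC 2 (-1.28). Summed over 8 neuron markers, the level was 62.1 to 86.1 CPM in BCSC and 85.6 to 106 in non-BCSC, with RBFOX3 at 0 in every BCSC library. The 3 astrocyte markers summed to 0.130 to 0.363 CPM and 0.442 to 4.03 CPM, and the 4 melanocyte markers, DCT included, to 0.936 to 2.96 CPM and 4.24 to 17.8 CPM. These sums were far below the levels of SOX2, POU3F2 and NES in both groups for astrocytes and melanocytes, and their part in the differences of the 8 genes was not tested.

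**Figure D5:**
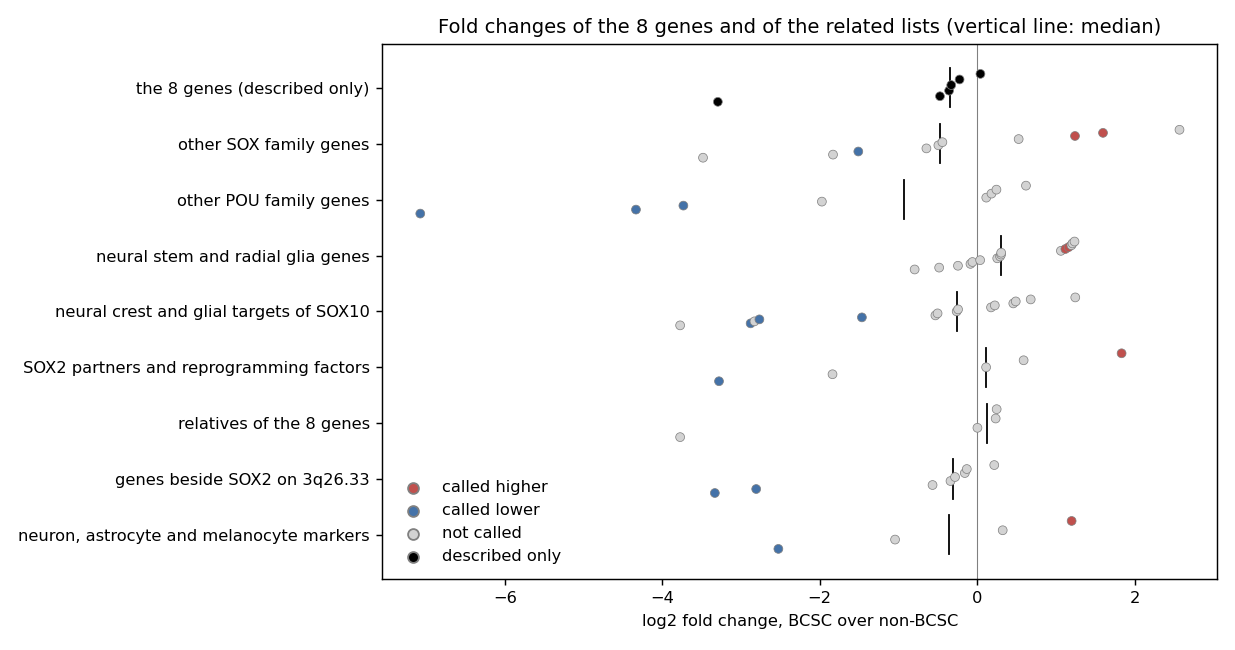
Log2 fold change, BCSC over non-BCSC (horizontal), of the 6 well-counted genes among the 8 (black, described only) and of the tested genes of each related list; red and blue points were called higher and lower, grey points were not called, and vertical lines are medians. FABP7, at -3.29, lies apart from the other 5 of its row, which lie between -0.47 and 0.04.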

How the data were processed

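LncRNA sequencing was carried out on 3 BCSC and 3 non-BCSC libraries of PTX-resistant MDA-MB-231. Per the labels, random primers and dUTP marking of the second strand were used. The values the authors deposited are whole-number counts per transcript, not normalized. The submitters' processing notes name HISAT2, featureCounts, DESeq2 and hg38, while the study's RNA-seq methods name HISAT2 and hg19. The annotation release, the strand setting and the handling of reads shared by isoforms are not given in the sources used here. Identifiers therefore gave positions: 249787 of 252618 transcripts matched GENCODE on GRCh37, 2827 did not and 4 assembled ones were left out.

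The 8 genes, the lists and the alternatives were chosen with earlier results of these data known. Counts were summed per gene and tested with edgeR 4.0.16 under R 4.3.3, using TMM, filterByExpr and robust quasi-likelihood dispersions with group as sole term, with BH adjustment over all 20442 genes. Depth was 9898588 to 21215352 counts, and 3 counts, the floor for a 0, was 0.148 to 0.288 CPM. Reads carried no molecular identifiers, so floors cover counting error only. Replicate pairs differed beyond sampling noise (chi-square per gene 15.2 to 42.1).

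Named were all 8 genes, SOX2-OT isoforms with at least 5% of either group's counts or at 0 in one group with at least 20 counts in every library of the other, the called genes of each list (at most 4 by p), its 2 most abundant uncalled genes, and the 3 genes most like SOX2. KRT8, KRT7, KRT19, GAPDH, some minor SOX2-OT isoforms and genes described only as low were named after their values were seen. Some listed genes are counted but not reported by name here. KRT7 averaged 1.64 and 1.86 CPM. Settings varied one at a time were the size factors (RLE), the tool (DESeq2 1.42.0, run on all 49795 genes with counts, so that the filter changed with it, and, added after seeing the data, on the 20442 genes past the filter), the filter (none, or 10 counts or more in every library), the replicate number as a block, each library left out, no minimum fold, GC and length correction (loess, span 0.3) and removal of an olfactory receptor background.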

Additional observations from a re-analysis of the deposited data

How the results depend on the processing

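The 1810 genes called higher and 2307 called lower, and the 6 and 11 listed ones, depended on several settings. Correction for GC content and length gave 798 genes higher and 0 listed genes higher in edgeR, with 10 listed genes higher at an unadjusted p under 0.05. DESeq2 without edgeR's filter called 4771 genes and 20 listed genes lower, and on the 20442 filtered genes, a setting chosen after seeing the data, 3512 and 15; a minimum of 10 counts in every library gave 1177 and 7, and removal of the olfactory background 1086 and 6. Without a minimum fold, 3125 genes and 10 listed genes were higher. Leaving out one library gave 959 to 2230 genes higher, 1103 to 3004 lower, 3 to 9 listed genes higher and 7 to 16 lower, with the fewest higher without BCSC 1 and the fewest lower without non-BCSC 3. Counting only isoforms with 10 counts or more in every library, the main SOX2-OT start held 74.8% in BCSC and 74.0% in non-BCSC, and 58.5% to 62.9% and 53.7% to 65.2% on leaving out a library.

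Log2 fold changes that turned sign with GC content and length corrected were SOX2-OT (0.13), SOX12 (-0.10), TUBB3 (-0.031), VIM (-0.36), SYNM (-0.13), GATA3 (-0.58, from 0.57) and TFAP2C (-1.15). GPM6B turned to -0.11 under that minimum of 10 counts and -0.15 after background removal, TFAP2C to -0.034 and -0.084 in the same settings and ATP11B to -0.015 after background removal. On leaving out one library TFAP2C ranged from -0.0017 (without non-BCSC 3) to 0.26 and POU5F2 from -0.20 (without BCSC 3) to 0.39. The cause was not tested. The labels give same-numbered libraries only a number in common. Their deviations correlated at 0.179, 0.0143 and 0.219, and those of libraries with different numbers at -0.200 to 0.0544. The pairs numbered 1 and 3 were thus the highest, while BCSC 2 correlated best with non-BCSC 1. Whether same-numbered libraries were handled together was not tested. A replicate block gave 1994 genes higher and 2321 lower, with 7 and 11 listed ones, and POU1F1 lost its call (edgeR adjusted p = 0.0632). Depth limits SOX8 and SOX10 and the sparse POU genes, where a few counts decide the value.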
